A study of Homo sapiens with 8 samples.

Results

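The genes that encode the constitutive proteasome were examined for 2 histone marks of active promoters in HL-60 cells. The cells were cultured with all-trans retinoic acid (ATRA) or with its solvent. The members were the protein-coding genes of GENCODE release 44 on hg19 whose symbol is PSMA, PSMB, PSMC, PSMD, PSME, PSMF or PSMG followed by a number. The immunoproteasome genes PSMB8, PSMB9 and PSMB10 were left out by this rule. It gave 45 of the 20090 protein-coding genes on chromosomes 1 to 22 and X.

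HL-60 cells are a long-established line from a promyelocytic leukemia, and the line differentiates towards granulocytes under ATRA. The ATRA group was cultured with 1 μM ATRA for 4 days, and the control group received the same volume of ethanol, the solvent of ATRA, for the same time. H3K4me3 and H3K27ac ChIP-seq libraries were available for 2 replicates of each group, which made 8 libraries of this single line. The labels do not state that the replicates were separate cultures. A peak is a stretch of the genome in which sequenced fragments carrying the mark were called enriched, and the deposited files list peak positions without read counts, so the sequencing depth is unknown. H3K4me3 libraries held 13241 to 16487 peaks and H3K27ac libraries 15457 to 39332, with fewer in control than in ATRA replicates of the same number for both marks. Of 8 myeloid marker genes, 5 or 6 had an H3K4me3 peak at their start in each library, and of 6 markers of other lineages none had one. Of 4 neutrophil maturation markers, 3 had one in each ATRA library and 1 in each control library, and with H3K27ac these counts were 4 in each ATRA library and 0 and 1 in the control libraries.

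The proteasome is the protease that degrades ubiquitin-tagged proteins in the cytoplasm and nucleus. Its barrel-shaped core particle, the 20S complex, consists of outer rings of alpha subunits (PSMA genes), which gate the entry, and inner rings of beta subunits (PSMB genes), of which PSMB5, PSMB6 and PSMB7 carry the active sites. The 19S regulatory particle binds ubiquitin chains with its non-ATPase subunits (PSMD genes) and unfolds substrates with its ATPases (PSMC genes). PSME genes encode other activators, PSMF1 an inhibitor, and the PSMG genes with PSMD5, PSMD9 and PSMD10 chaperones of assembly. Nearly every cell needs these genes, and H3K4me3 marks the start of active genes, whereas H3K27ac marks active promoters and enhancers.

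Promoters of 5 members that the results turn on are shown first, as the 250 bases before the transcription start site (TSS) of the canonical transcript. PSMB7 and PSMB4 are core subunits, and PSMD8 is a 19S subunit. H3K27ac was absent in 1 library at PSMB7. At PSMB4 and PSMD8 it was narrower in both ATRA than in both control replicates. PSMD5 and PSMB11 had neither mark. Sequences are from the GRCh37 assembly, 5′ to 3′ on the strand of the gene, with matches of the searched motifs in capitals. They lie at chr9:127177722-127177971 (PSMB7, minus strand), chr1:151371799-151372048 (PSMB4, plus strand), chr19:38864961-38865210 (PSMD8, plus strand), chr9:123605201-123605450 (PSMD5, minus strand) and chr14:23511171-23511420 (PSMB11, plus strand).
PSMB7: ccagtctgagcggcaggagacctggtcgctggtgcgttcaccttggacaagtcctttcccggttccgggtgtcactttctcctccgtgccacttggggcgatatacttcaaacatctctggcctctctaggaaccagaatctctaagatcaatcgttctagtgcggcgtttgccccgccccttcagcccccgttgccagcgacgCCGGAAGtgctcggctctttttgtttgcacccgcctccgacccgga
PSMB4: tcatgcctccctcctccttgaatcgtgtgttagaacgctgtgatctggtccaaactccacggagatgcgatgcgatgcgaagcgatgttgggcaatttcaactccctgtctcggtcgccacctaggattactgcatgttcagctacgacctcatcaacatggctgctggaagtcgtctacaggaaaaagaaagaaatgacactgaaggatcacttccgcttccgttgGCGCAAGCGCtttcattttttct
PSMD8: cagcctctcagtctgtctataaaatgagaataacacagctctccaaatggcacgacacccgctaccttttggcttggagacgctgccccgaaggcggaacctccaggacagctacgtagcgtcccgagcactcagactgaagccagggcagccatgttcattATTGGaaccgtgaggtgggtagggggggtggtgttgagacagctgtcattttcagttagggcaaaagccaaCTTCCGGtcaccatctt
PSMD5: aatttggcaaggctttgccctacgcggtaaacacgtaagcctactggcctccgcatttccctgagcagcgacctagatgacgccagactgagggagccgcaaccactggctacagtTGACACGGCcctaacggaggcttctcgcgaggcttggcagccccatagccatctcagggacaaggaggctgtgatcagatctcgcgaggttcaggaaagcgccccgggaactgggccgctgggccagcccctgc
PSMB11: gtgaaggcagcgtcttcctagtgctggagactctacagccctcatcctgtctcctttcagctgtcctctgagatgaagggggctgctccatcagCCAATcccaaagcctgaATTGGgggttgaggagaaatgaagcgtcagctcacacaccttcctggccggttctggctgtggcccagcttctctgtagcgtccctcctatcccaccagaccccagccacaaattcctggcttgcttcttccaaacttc

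Capitals mark a TGACNNNGC match in PSMD5 (the core of the antioxidant response element, which the NFE2L1 and NFE2L2 factors bind), a CCGGAAG match in PSMB7 and PSMD8 (bound by ETS factors), CCAAT matches in PSMB11 and PSMD8 (bound by NF-Y) and a nuclear respiratory factor 1 motif in PSMB4. Each motif was searched on both strands. Over the 45 members, TGACNNNGC was found in 11 promoters (24.4%, compared with 11.3% of all 20090 protein-coding promoters of this length). CCGGAAG was found in 14 (31.1%, compared with 11.8%) and CCAAT in 18 (40.0%, compared with 34.1%). The nuclear respiratory factor 1 motif was found in 4 (8.89%, compared with 7.52%) and the E-box CACGTG in 3 (6.67%, compared with 7.86%). PSMA7 held 3 TGACNNNGC matches. A match describes the letters and not binding, and none of these shares was tested.

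CpG dinucleotides are frequent in promoters of housekeeping genes. The observed over expected CpG ratio had a median of 0.827 over the members and 0.747 over all protein-coding promoters. The lowest ratio among the members, 0.21, belonged to PSMB11, the beta subunit of the thymus proteasome. PSMD5 had 0.675 and PSMA8, the testis form of an alpha subunit, 0.872, so the 3 members without marks did not all have a low CpG ratio.

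To ask which members carry the marks, a peak was counted at a gene when it overlapped the 500 bp on either side of the TSS. H3K4me3 was found at 42 of the 45 members, the same 42 genes in each of the 4 libraries. Among all protein-coding genes, 52.4% had H3K4me3 in all 4 libraries. The peak covered the TSS base itself at all 42 genes in each library. The smallest two-sided p that exact permutation of 2 and 2 libraries allows is 0.333, so no difference between conditions was tested, and differences are described by whether the libraries of the conditions overlap.

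**Figure D1:**
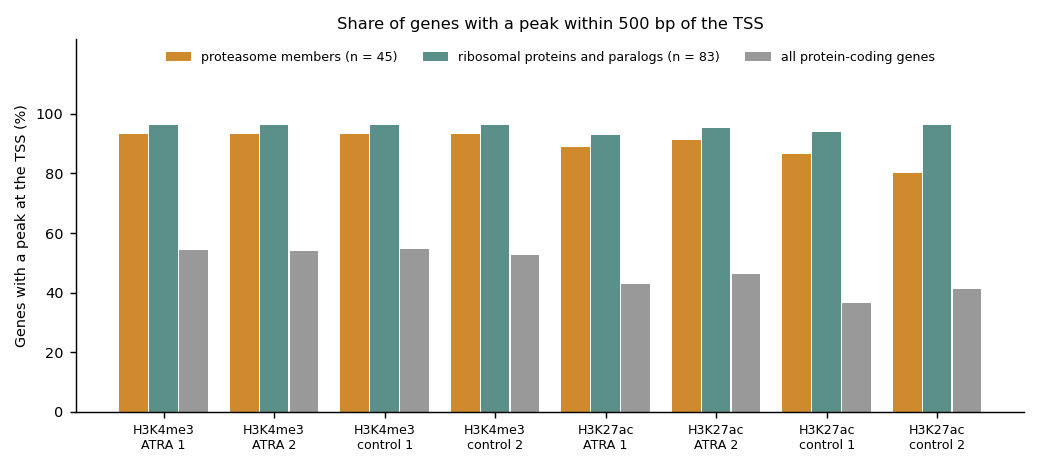
Percentage of genes with a peak within 500 bp of the TSS (vertical axis) in each of the 8 libraries (horizontal axis), for the 45 proteasome members, 83 cytosolic ribosomal protein genes with their paralogs and all protein-coding genes. Proteasome members reach 42 of 45 for H3K4me3 in each library and between 36 and 41 for H3K27ac, far above all genes and below the ribosomal genes.

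The 3 members without H3K4me3 also lacked H3K27ac in all 4 libraries. PSMA8 and PSMB11 are known for expression in testis and in thymus. The H3K4me3 peak nearest to the PSMA8 TSS was 40.2 to 40.37 kb away. PSMB11 lies 7.31 kb from PSMB5 on chromosome 14, and in all 4 libraries its nearest H3K4me3 peak, 5.16 to 6.29 kb away, was the peak over the PSMB5 TSS. In ATRA replicate 1 alone, PSMB11 had 6 H3K27ac peaks within 10 kb, the nearest 812 bp downstream of its TSS, compared with 1 in each of the other libraries. The third gene, PSMD5, encodes a chaperone that helps to assemble the ATPase ring of the 19S particle. Its TSS is at 123605200 on chromosome 9 (minus strand), and the nearest H3K4me3 peak was 25.25 to 31.47 kb away in the 4 libraries. No H3K27ac peak lay within 10 kb of it in any library. The other chaperones of the same step, PSMD9 and PSMD10, had H3K4me3 in all libraries.

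H3K27ac was found at 40 and 41 members in ATRA replicates 1 and 2, and at 39 and 36 members in control replicates 1 and 2. Among all protein-coding genes the shares were 42.7% and 46.3% in the ATRA and 36.6% and 41.0% in the control replicates. Of the 42 members with H3K4me3, all had H3K27ac in at least 1 library and 34 (81.0%) had it in all 4, compared with 60.5% of the protein-coding genes with H3K4me3 in all 4 libraries. The remaining 8 members, which lacked it in 1 to 3 libraries, were PSMA2, PSMA5, PSMB6, PSMB7, PSMC2, PSMD2, PSMD4 and PSMD9. When a peak had to cover the TSS base, 21 members had H3K27ac in all 4 libraries, as did 19.5% of all genes (32.1% with the 500 bp window). When only peaks with a −log10 q of at least 5 were kept, no member did (0.04% of all genes). Control replicate 1 had the fewest H3K27ac peaks of all libraries and control replicate 2 the fewest members with one.

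PSMB6, the subunit with caspase-like activity, had H3K27ac in the fewest libraries of the marked members. It had a single peak of 969 bp in ATRA replicate 2 and none in ATRA replicate 1 or either control replicate, where no peak lay within 10 kb. Its H3K4me3 peak was also the narrowest in the 20S beta group, with 3762 and 3087 bp in ATRA replicates 1 and 2 and 2156 and 2068 bp in control replicates 1 and 2. Both ATRA values lay above both control values, and the log2 change of 0.70 was the highest of the members. In PSMB7, the subunit with trypsin-like activity, H3K27ac spanned 1331 and 1730 bp in the ATRA replicates, 463 bp in control replicate 1 and nothing in control replicate 2, where the nearest peak ran from −919 to −528 bp of the TSS and so ended before the window. The third active subunit, PSMB5, with chymotrypsin-like activity, had H3K27ac in every library. The peak spanned 2159 and 2051 bp in the ATRA replicates and 1636 and 1866 bp in the control replicates. The catalytic subunits thus differed in H3K27ac, from nearly absent at PSMB6 to present throughout at PSMB5.

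The assembly chaperone PSMD9 was the only member with H3K27ac in both ATRA replicates and in neither control replicate (2.38% of the 42 members, compared with 3.38% of the genes with H3K4me3 in all 4 libraries). Its peak spanned 2489 and 2009 bp in ATRA replicates 1 and 2. This pattern depended on the window, since control replicates 1 and 2 had peaks of 298 and 413 bp that began 727 and 633 bp downstream of the TSS. H3K4me3 at PSMD9 differed little, with 3271 and 3105 bp in the ATRA and 3365 and 2873 bp in the control replicates. No member had H3K27ac in both control replicates and in neither ATRA replicate.

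The other members with missing H3K27ac peaks differed between replicates. PSMA5, an alpha subunit, had 2307 and 3415 bp in the ATRA replicates, 1829 bp in control replicate 1 and none in control replicate 2. PSMD4, a ubiquitin receptor of the 19S particle, had 1877 and 2290 bp in the ATRA replicates, 1023 bp in control replicate 1 and none in control replicate 2. At the ATPase gene PSMC2, peaks of 4386 and 4907 bp in the ATRA replicates compared with none in control replicate 1 and 2264 bp in control replicate 2. In these 3 genes both ATRA widths were above both control widths. PSMA2, another alpha subunit, went the other way in replicate 2, with 2108 bp and none in the ATRA replicates and 1144 and 850 bp in the control replicates. PSMD2, the scaffold subunit that docks ubiquitin-carrying partners, had short peaks of 772 bp in ATRA replicate 2 and 263 bp in control replicate 1 only. The window decided some of these absences, since PSMD2 had a peak from 551 to 1014 bp downstream in ATRA replicate 1 and PSMA5 from 619 to 1272 bp downstream in control replicate 2.

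**Figure D2:**
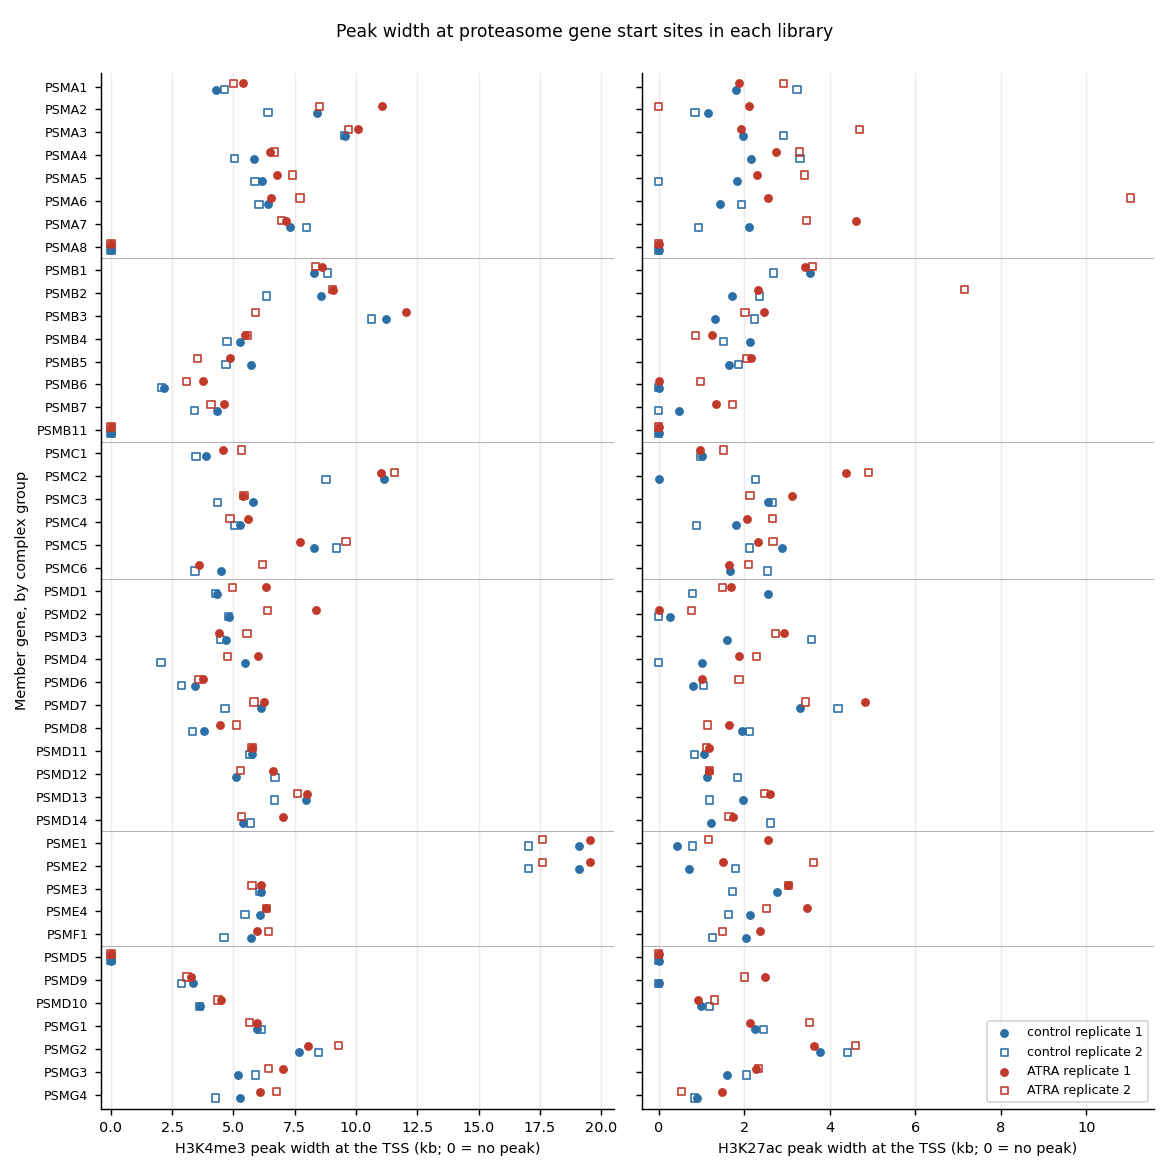
Width in kb of the longest H3K4me3 (left) and H3K27ac (right) peak within 500 bp of the TSS (horizontal axis) for each of the 45 members (vertical axis, grouped by complex), with filled circles for replicate 1 and open squares for replicate 2 of the control (blue) and ATRA (red) libraries; 0 means no peak. PSME1 and PSME2 stand out with H3K4me3 of 17045 to 19545 bp, and PSMA8, PSMB11 and PSMD5 lie at 0 for both marks.

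The width of the peak was compared next, because broad H3K4me3 is known to accompany highly and stably transcribed genes. The median H3K4me3 width over the marked members was 6288.5 and 5876.5 bp in ATRA replicates 1 and 2 and 5741.5 and 5261.5 bp in control replicates 1 and 2. Ranked among all protein-coding genes with a peak in the same library, the members' median stood at percentile 55.3 to 63.9 for H3K4me3 and 43.2 to 51.4 for H3K27ac. Ribosomal protein genes, another family of large constitutive complexes, stood at 70.2 to 81.6 and 54.3 to 69.4. Proteasome promoters were thus near the middle of marked genes in peak width, and lower than ribosomal promoters in each library. None of this was tested.

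The widest H3K4me3 peak was a single domain on chromosome 14 that covers the start sites of both PSME1 and PSME2, the subunits of the interferon-inducible PA28 activator, together with those of EMC9 and RNF31. It measured 19545 and 17615 bp in the ATRA replicates and 19106 and 17045 bp in the control replicates, so both replicate 1 values were above both replicate 2 values whatever the treatment. Since both genes share this peak, they are not separate observations of H3K4me3. H3K27ac, by contrast, was split into separate peaks under the domain. At PSME1 it measured 2558 and 1164 bp in the ATRA and 418 and 781 bp in the control replicates, and the 2 conditions did not overlap. At PSME2 it measured 1502 and 3623 bp in the ATRA and 716 and 1796 bp in the control replicates, which overlapped.

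In the other groups, H3K4me3 was widest at PSMC2 (mean of the 4 libraries 10630 bp), PSMB3 (9955 bp), PSMA3 (9716 bp), PSMG2 (8366 bp) and PSMD13 (7563 bp). It was narrowest at PSMB6 (2768 bp), PSMD9 (3154 bp), PSMD6 (3409 bp), PSMC1 (4309 bp) and PSMA1 (4825 bp). In the regulators, the group of PSME1 and PSME2, H3K4me3 was narrowest at PSMF1 (5686 bp). Several of the widest peaks also hold the start of a neighboring gene, DNAJC2 at PSMC2, PCGF2 at PSMB3, CEP76 at PSMG2 and SIRT3 at PSMD13. At PSMB3 the peak of ATRA replicate 2 ended 2571 bp upstream and did not hold the PCGF2 start. The peak reached 8668 bp upstream in ATRA replicate 1 and 7910 and 7167 bp in control replicates 1 and 2. In control replicate 1, 14 of the 42 H3K4me3 peaks covered the TSS of another protein-coding gene. Within 1 kb of the TSS, 10 of the 45 members (22.2%) had another protein-coding TSS, compared with 14.2% of all protein-coding genes. A divergent partner upstream was present at 7 members (15.6%, compared with 9.38%), such as FTSJ3 at PSMC5 and ACYP2 at PSME4.

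The difference in H3K4me3 width between the ATRA and control libraries was close to that at protein-coding genes in general. The log2 ratio of mean ATRA to mean control width had a median of 0.16 over the 42 marked members (range −0.32 to 0.70) and of 0.17 over 10532 protein-coding genes with a peak in all 4 libraries. It was above 0 at 35 of the 42 members, compared with 8377 of the 10532 genes. From the libraries numbered 1 and 2 the members' medians were 0.073 and 0.23, and without control replicate 2, which had the fewest H3K4me3 peaks, the median was 0.077 (0.071 over all genes). Both ATRA widths were above both control widths at 20 of the 42 members (47.6%, compared with 41.1% of the 11150 genes with a peak in at least 1 library) and below them at 1 member (2.38%, compared with 4.73%). These shares are near the background. The length under peaks within 2 kb of the TSS leaves out the outer flanks. It is cut at 2 kb on either side, so a peak that passes both cuts in every library gives a log2 ratio of 0. A width change in the flanks therefore cannot show in this length. Its median log2 ratio was 0.00 over the members and 0.01 over all genes. It was longer in both ATRA replicates at 6 members (compared with 19.6% of all genes) and shorter at 3 (compared with 4.0%).

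**Figure D3:**
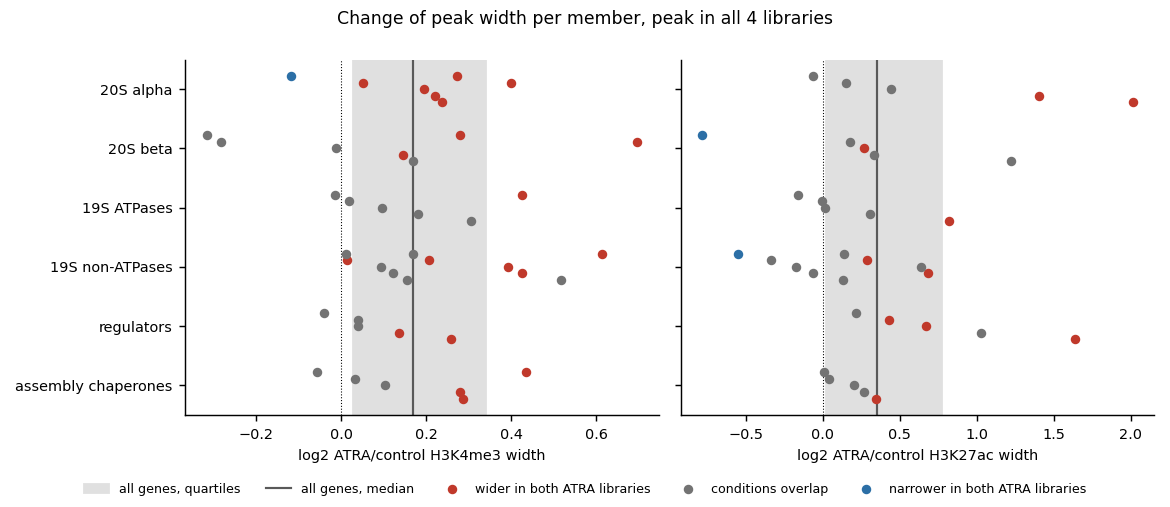
The log2 ratio of mean ATRA to mean control peak width (horizontal axis) for H3K4me3 (left, 42 members) and H3K27ac (right, 34 members) by complex group (vertical axis), with colors for members whose ATRA libraries both lie above (red) or below (blue) both control libraries. The gray line and band give the median and quartiles of all protein-coding genes, 0.17 (0.03 to 0.34) and 0.35 (0.02 to 0.77). Members lie inside the band and on both sides of it.

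By complex group, the 7 marked 20S alpha genes did not overlap between conditions, with 6 wider in both ATRA replicates and PSMA7 narrower. Among the 6 are PSMA5 with 6788 and 7403 bp in the ATRA and 6153 and 5879 bp in the control replicates, and PSMA2 with 11052 and 8520 bp and 8429 and 6412 bp. At PSMA3 the conditions were close, with 10097 and 9684 bp in the ATRA and 9539 and 9542 bp in the control replicates. PSMA7 measured 7139 and 6961 bp in the ATRA and 7323 and 7984 bp in the control replicates, a log2 change of −0.12. The counts of wider members were 3 of 7 for 20S beta, 1 of 6 for the 19S ATPases, 5 of 11 for the 19S non-ATPases, 2 of 5 for the regulators and 3 of 6 for the chaperones, with none narrower in these groups. The shares over all genes were 41.1% wider and 4.73% narrower. No difference between the groups was tested.

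After PSMB6, the highest H3K4me3 changes were those of the 19S subunits PSMD2 and PSMD4. PSMD2 measured 8368 and 6381 bp in the ATRA and 4826 and 4805 bp in the control replicates (log2 change of 0.61), so that both ATRA peaks were longer although H3K27ac there was short or missing. PSMD4 had 5994 and 4753 bp in the ATRA and 5463 and 2040 bp in the control replicates (0.52), and its conditions overlapped, since control replicate 1 lay above ATRA replicate 2, while control replicate 2 lay below all other libraries. The lowest changes were those of PSMB5 and PSMB3, a non-catalytic beta subunit. PSMB5 had 4858 and 3518 bp in the ATRA and 5728 and 4700 bp in the control replicates (−0.32), and PSMB3 had 12049 and 5910 bp and 11241 and 10621 bp (−0.28). In both genes the conditions overlapped, and at PSMB3 the low value came from ATRA replicate 2 alone. Among the PSMB3 peaks, only that one did not hold the start of PCGF2. PSMD14, the subunit that removes ubiquitin chains, had 7011 and 5329 bp in the ATRA and 5393 and 5690 bp in the control replicates, and the inhibitor gene PSMF1 5959 and 6433 bp and 5736 and 4616 bp.

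The H3K27ac width ratio had a median of 0.24 over the 34 members with a peak in all 4 libraries (range −0.78 to 2.01), compared with 0.35 over 6455 protein-coding genes. It was above 0 at 26 of the 34, compared with 4940 of the 6455 genes. The libraries numbered 1 and 2 gave 0.25 and 0.28, and the median was 0.36 without control replicate 2 (0.58 over all genes). Both ATRA widths were above both control widths at 15 of the 42 members with H3K27ac (35.7%, compared with 33.7% of 10184 genes) and below them at 2 (4.76%, compared with 4.44%). These shares are again near the background. Without ATRA replicate 1 the first count was 26 of 42 and without control replicate 2 it was 25, where 64.8% and 58.8% of all genes were wider.

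Replicates differed more for H3K27ac than for H3K4me3. The median absolute log2 difference between replicates over the members was 0.14 (ATRA) and 0.16 (control) for H3K4me3, next to a median absolute change of 0.17. For H3K27ac it was 0.43 and 0.48, next to a change of 0.30. The change was larger than both replicate differences at 12 of 42 members for H3K4me3 (28.6%, compared with 30.6% of all genes) and at 6 of 34 for H3K27ac (17.6%, compared with 26.6%). At most members the change in either mark was thus not larger than both replicate differences. A member can miss this criterion although its conditions do not overlap, as PSMA3 does for H3K4me3.

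The highest H3K27ac change was at PSMA6, an alpha subunit, with 2562 and 11042 bp in the ATRA and 1440 and 1932 bp in the control replicates (log2 change of 2.01). Both ATRA values were higher, but ATRA replicate 2 alone gave most of the size. PSME1 followed with 1.63. PSMA7 came next with 4618 and 3465 bp in the ATRA and 2122 and 930 bp in the control replicates (1.41), and the conditions did not overlap. PSMA7 was thus the member with narrower H3K4me3 and wider H3K27ac in both ATRA replicates. At PSMB2, a beta subunit, a log2 change of 1.22 rested on ATRA replicate 2 (7160 bp), while ATRA replicate 1 had 2314 bp and the controls 1704 and 2353 bp.

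Of the marked members, 2 had narrower H3K27ac in both ATRA replicates. PSMB4, a beta subunit needed for joining the parts of the core, had 1255 and 857 bp in the ATRA and 2124 and 1510 bp in the control replicates (log2 change of −0.78). PSMD8, a lid subunit of the 19S particle, had 1645 and 1139 bp in the ATRA and 1957 and 2121 bp in the control replicates (−0.55). At both genes H3K4me3 went the other way, with 5483 and 5568 bp in the ATRA and 5248 and 4735 bp in the control replicates at PSMB4 and 4453 and 5128 bp and 3798 and 3338 bp at PSMD8. PSMD12, another lid subunit, had the third lowest change (−0.34), with 1178 and 1179 bp in the ATRA and 1134 and 1848 bp in the control replicates, which overlapped.

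Both marks were wider in both ATRA replicates at 5 members, PSMA5, PSMA6, PSMD11, PSMG3 and PSME4. This pattern was found at 15.8% of the 9625 protein-coding genes with a peak of each mark, and 5 of 42 lies near it. PSME4 encodes the PA200 activator. Its H3K4me3 measured 6345 and 6353 bp in the ATRA and 6079 and 5468 bp in the control replicates, and its H3K27ac 3457 and 2524 bp and 2123 and 1630 bp. PSMG3, a chaperone of the alpha ring, had H3K27ac of 2280 and 2329 bp in the ATRA and 1587 and 2051 bp in the control replicates. PSMD11, a lid subunit, differed least, with H3K4me3 between 5677 and 5776 bp in all 4 libraries.

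The extent of the peaks around the TSS varied among the members. Over members and libraries, H3K4me3 reached from 151 bp (PSMB6) to 8668 bp (PSMB3) upstream and from 1408 bp (PSMD4) to 16481 bp (PSME1) downstream of the TSS. It reached a median of 1699.5 to 2524 bp upstream and 3388 to 3831.5 bp downstream in the 4 libraries. It extended further downstream than upstream at 34 to 37 of the 42 members (81.0% to 88.1%, compared with 73.3% to 76.2% of all genes with a peak). H3K27ac reached 482 to 1122 bp upstream and 1077 to 1205 bp downstream, and was longer on the downstream side at 63.4% to 79.5% of the members with a peak (54.8% to 65.2% of all genes). The H3K27ac peak lay wholly inside the H3K4me3 peak of the library with the same treatment and number at 39 of 39 and 32 of 36 members in control replicates 1 and 2 and at 37 of 40 and 33 of 41 in ATRA replicates 1 and 2. Over all genes these shares were 93.9% and 74.3% in the control and 83.7% and 72.5% in the ATRA replicates. Its median width was 29.0% and 30.5% of that of H3K4me3 in the control and 33.2% and 39.7% in the ATRA replicates, compared with 28.7% and 42.9% and with 35.5% and 44.5% over all genes.

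**Figure D4:**
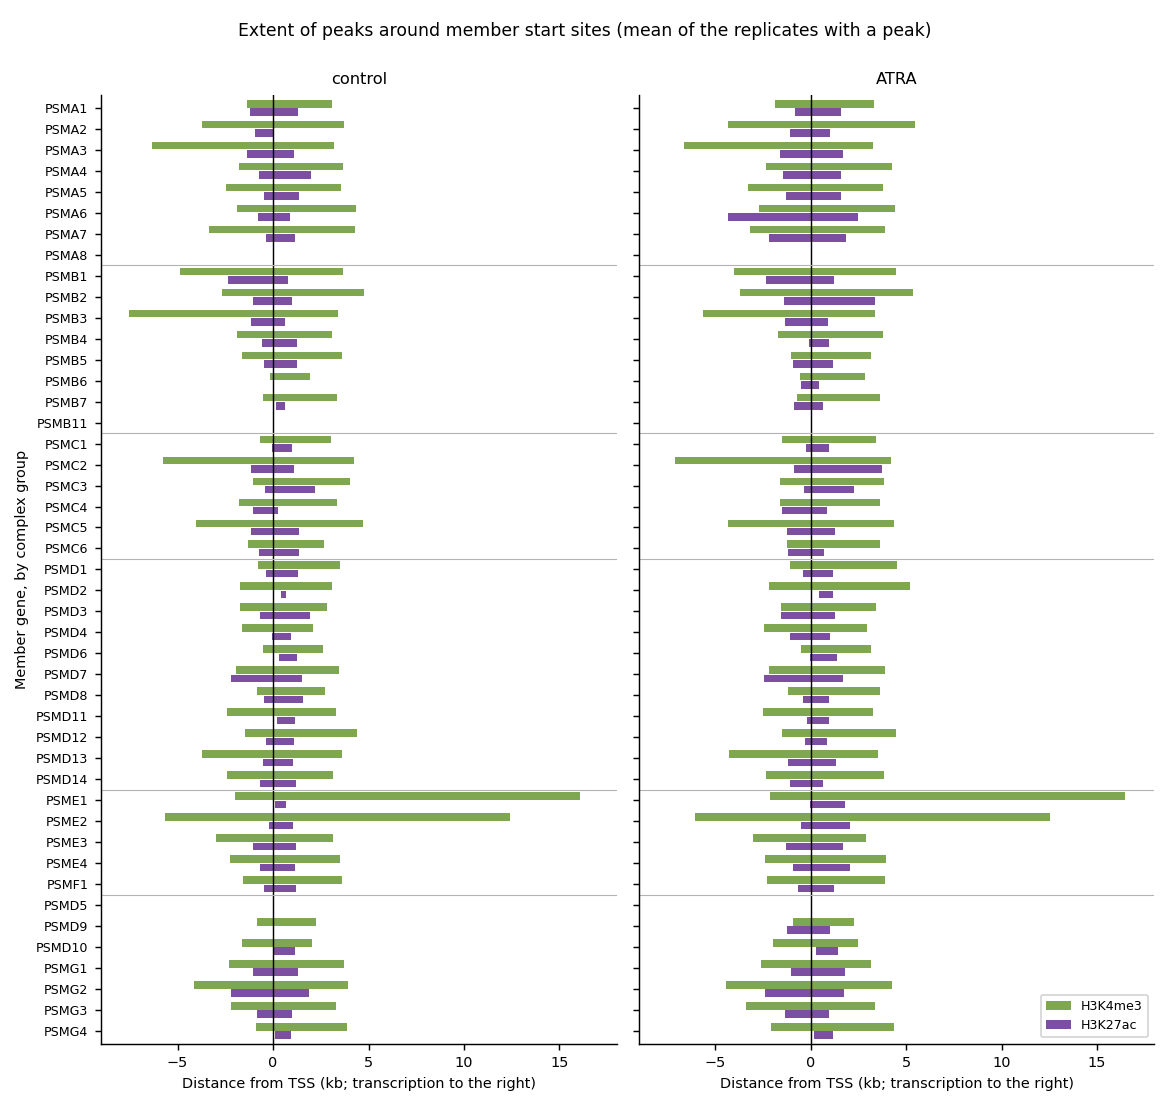
Extent of the H3K4me3 (green) and H3K27ac (purple) peaks around the TSS of each member (vertical axis, grouped by complex) in control (left) and ATRA (right) cells, in kb from the TSS with transcription to the right (horizontal axis). Bars run from the mean upstream to the mean downstream end over the replicates with a peak, and at most members the shorter H3K27ac bar lies inside an H3K4me3 bar that is longer on the downstream side.

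Other genes of the pathway were examined from a list of 19, made of the immunoproteasome, loosely bound subunits, assembly factors, the regulators NFE2L1 and NFE2L2, and ubiquitin genes. H3K4me3 was present in all 4 libraries at 18 of them and H3K27ac at 17. Both ATRA replicates were wider than both control replicates at 9 of 18 for H3K4me3 and at 7 of 18 for H3K27ac, and narrower at none. The shares over all genes were 41.1% and 33.7% wider and 4.73% and 4.44% narrower. The immunoproteasome genes PSMB8 and PSMB9 shared an H3K4me3 domain of 23793 to 25369 bp whose conditions overlapped. PSMB10 was wider for both marks, with H3K27ac of 3246 and 3516 bp in the ATRA and 2963 and 2437 bp in the control replicates. POMP, the chaperone that matures the core particle, had H3K4me3 of 7057 and 7460 bp in the ATRA and 6464 and 6286 bp in the control replicates, and NFE2L1, which drives proteasome genes when the proteasome is impaired, 9978 and 9472 bp and 9525 and 7264 bp. The median log2 width ratio of the ribosomal protein genes was 0.03 for H3K4me3 and 0.09 for H3K27ac, below those of the members, and the difference was not tested.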

How the data were processed

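H3K4me3 and H3K27ac ChIP-seq peaks of HL-60 cells were taken as deposited, 1 file for each of the 8 libraries. Per the labels and the methods of the study, the authors trimmed reads with cutadapt, mapped them with Bowtie (hg19) and ran MACS2 in its broad mode on each library, without pooling replicates. Input libraries were also made, but whether they entered the call is not given in the sources used here. The files hold peak positions and, as deposited, a −log10 q-value. The fold and −log10 p-value columns as deposited held values that such columns cannot take and were not used. Without read counts the depth is unknown, and a library with fewer called peaks may miss weak ones.

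Genes and start sites came from GENCODE release 44 lifted to hg19, with the TSS of the canonical transcript (all 45 members are MANE Select). The width is that of the longest peak within 500 bp of the TSS, and an absent peak counted as 0 when libraries were compared. Log2 ratios used genes with a peak in all 4 libraries of the mark. Members with a missing peak, with the highest and lowest changes or with non-overlapping conditions were chosen for description by rule. Members, gene lists and motifs were chosen with earlier results of these data known. Same-numbered libraries share a tag in their peak names, and the correlation across genes of their replicate deviations was 0.004 over the members for H3K4me3 and 0.28 for H3K27ac (0.19 and 0.37 over all genes). Python 3.11.15, numpy 2.4.6 and pandas 2.3.3 were used, and the width calculation was tested on 2000 simulated start sites. Alternatives varied the window, the TSS, the q-value, the number of peaks and the libraries. The promoter sequence of another member is not reported here.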

Additional observations from a re-analysis of the deposited data

How the results depend on the processing

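The count of 42 members with H3K4me3 in all 4 libraries kept within 1.5 times under all 11 alternatives (32 to 42), and no median turned its sign. The lowest, 32, was out of only 35 members with no other TSS within 1 kb (47.2% of such genes). Over all 45 members the lowest was 35, with a −log10 q of at least 5 (38.6% of all genes). Counting the length under peaks within 2 kb of the TSS gave an H3K4me3 median of 0.00, with 6 members wider and 3 narrower (compared with 19.6% and 4.0% of all genes). This length is cut at 2 kb on either side and cannot show a change beyond. The count of 1 member with narrower H3K4me3 became 2 with a −log10 q of at least 5, where 5.77% of all genes were narrower. It was also 2 with the 5′ end of the gene record as TSS (4.72% of all genes) and with any protein-coding transcript start (4.73%). It was 0 among members with no other TSS within 1 kb (4.96% of such genes). For H3K27ac, requiring a peak over the TSS base gave 21 members in all 4 libraries (compared with 19.5% of all genes) and a median of 0.17. A −log10 q of at least 5 gave 0 members and no median. Of the 20 members that kept a peak, 1 was wider and 1 narrower, compared with 5.15% and 2.88% of all genes with a peak. Keeping the same number of longest peaks per library gave 20 members with H3K27ac in all 4 libraries (compared with 21.9% of all genes). The median was 0.28 with any transcript start and 0.21 over all members with a pseudocount of 500 bp.

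Leaving out 1 library at a time gave H3K4me3 medians of 0.077 to 0.22, 23 to 30 wider and 3 to 7 narrower members, where 45.1% to 75.7% of all genes were wider and 6.89% to 26.8% narrower. For H3K27ac it gave 34 to 37 members with a peak throughout, medians of 0.19 (without ATRA replicate 2) to 0.36 (without control replicate 2), 19 to 26 wider and 4 to 8 narrower members, beside 40.6% to 64.8% and 8.62% to 22.4% of all genes. A condition with 1 library overlaps less by construction. With the replicate number as a block (ATRA above control within both numbers), the H3K4me3 median was 0.16, with 27 wider and 3 narrower members (53.3% and 8.25% of all genes), and the H3K27ac median 0.23, with 19 and 3 (49.35% and 8.79%). The labels do not say that a number marks a shared culture or day. With 2 replicates and unknown depth, an absent or shorter peak cannot be told apart from a weaker library.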

Other observations

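UBB, a polyubiquitin gene, was the only gene of the 19 in the wider pathway list without a peak of either mark at its TSS in any of the 8 libraries. USP14, a deubiquitinase of the 19S particle, had H3K27ac of 2200 and 2874 bp in the ATRA replicates, 1189 bp in control replicate 1 and none in control replicate 2. ADRM1, PAAF1, POMP, PSMB10 and USP14 were wider for both marks in both ATRA replicates. This pattern was found at 15.8% of the 9625 protein-coding genes with a peak of each mark, and the list was not tested against it. The ribosomal protein genes were wider in both ATRA replicates at 18 of 80 genes for H3K4me3 (22.5%, compared with 41.1% of all genes). For H3K27ac this held at 14 of 80 (17.5%, compared with 33.7% of all genes). Both shares were below those of all genes, and the difference was not tested.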
